A study of Mus musculus with 12 samples.

Results

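The cytosolic ribosomal protein genes code for the proteins of the ribosome that works in the cytoplasm. They were chosen by symbol: protein-coding genes named Rpl or Rps with a number and at most 1 final letter a, l or x, plus Rplp0, Rplp1, Rplp2 and Rpsa, leaving out pseudogenes and the Rps6k kinases. The rule found 80 genes among the 52336 in the deposited table, 31 for the small (40S) subunit and 49 for the large (60S) subunit, and used no measured value. A mean normalized count of at least 10 over all libraries was asked of a gene before testing. All 31 of the 40S genes and 46 of the 60S genes passed, 77 in all. The 3 that did not pass were Rpl10l, Rpl39l and Rpl24.

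The 12 RNA sequencing libraries came from cardiomyocytes, the contractile cells of the heart, of wild type mouse pups, with 3 libraries in each of 4 groups. NAC MI pups were given the antioxidant NAC (N-acetylcysteine), a source of cysteine, each day on postnatal days 0 and 1, at a dose the labels call high, in saline buffered with 25 mM HEPES and 140 mM NaCl. On day 2 their left anterior descending coronary artery was occluded (myocardial infarction, MI). Saline MI pups had the saline control and the same occlusion, NAC sham pups had NAC and a sham procedure, and saline sham pups had saline and a sham procedure. All hearts were collected on day 3, and in every group cells were taken from pooled digested ventricles with a neonatal cardiomyocyte isolation kit, so no library stands for 1 animal. Whether replicates came from separate litters is not stated, and p-values measure only the spread between these libraries. The design text asks what NAC changes in uninjured and injured hearts.

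Nearly all of these proteins are present in equal number in a ribosome, and their mRNAs are made in parallel. In mammals most of these mRNAs begin with a run of pyrimidines, the 5′ terminal oligopyrimidine (TOP) tract, through which the growth kinase complex mTORC1 and the RNA-binding protein Larp1 control how much of them is translated and stored. A few members have a close relative (paralog) with restricted expression: Rpl3l, made in heart and skeletal muscle, and Rpl10l and Rpl39l, known from the testis.

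The start sites are shown because a TOP tract, where a gene has one, begins there. RefSeq promoter windows of build GRCm38.p6 matched 60 of the 80 genes, with 72 annotated starts. Each line below runs 5′ to 3′ over the 35 bases before an annotated start and the first 15 bases of the transcript, and capitals mark the longest unbroken run of C and T within 25 bases of the start.
Rpl28 (chr7:4792930-4792979, plus strand): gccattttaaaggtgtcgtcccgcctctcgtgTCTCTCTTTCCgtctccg
Rpl38 (chr11:114668545-114668594, plus strand): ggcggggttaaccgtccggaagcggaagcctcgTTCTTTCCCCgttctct
Rpl15 (chr14:18270972-18271021, minus strand): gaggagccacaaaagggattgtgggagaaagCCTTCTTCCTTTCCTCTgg
Rps6 (chr4:86857353-86857402, minus strand): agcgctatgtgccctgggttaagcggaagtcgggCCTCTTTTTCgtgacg
Rps27 (chr3:90213634-90213683, minus strand): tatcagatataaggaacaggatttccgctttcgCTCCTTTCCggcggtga
Rps27l (chr9:66946051-66946100, plus strand): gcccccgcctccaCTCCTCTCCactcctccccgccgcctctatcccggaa
Rpl39 (chrX:37085208-37085257, minus strand): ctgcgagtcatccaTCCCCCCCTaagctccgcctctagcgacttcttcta
Rpl39l (chr16:10170193-10170242, plus strand): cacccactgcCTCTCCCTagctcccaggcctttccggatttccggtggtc
Rpl3l (chr17:24727791-24727840, plus strand): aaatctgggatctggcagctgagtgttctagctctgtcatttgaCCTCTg
In the first 5 of these the run lies across the annotated start, whereas in Rps27l, Rpl39 and Rpl39l it lies upstream of it. Rpl3l, the muscle paralog, had a run of 5 bases, behind the start. The lines shown do not stand for the whole family. Among members not shown, the longest run was 3 bases in Rpl41, 4 in Rpl10 and 5 in Rpsa.

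A run of at least 8 pyrimidines within 25 bases of a start was found in 32 of the 60 matched members (53.3%), against 6014 of all 27025 genes with a window (22.3%). Over the 250 bases before and 50 bases after the start, on either strand, CTTTCC stood in 32 of 60 members (53.3%) and in 29.3% of all genes. CCGGAAG, the core that ETS factors such as Gabpa are known to bind, stood in 25 of 60 members (41.7%) and in 9.93% of all genes. TATAAA stood in 6 of 60 members, against 15.7% of all genes. A CTTTCC match can lie inside a pyrimidine run, and base composition was not evened out between the sets. These are matches of letters, not measured binding.

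Library depth ran from 14353842 to 25118341 reads, and the members together took 2.26 to 4.16% of the reads. Mitochondrial reads were 21.7 to 27.8% of all reads in NAC MI and 24.7 to 30.2% in saline MI, against 15.4 to 24.8% in NAC sham and 7.65 to 27.7% in saline sham. Saline sham 3 stood apart from the other saline sham libraries: 27.7% of its reads were mitochondrial, against 7.65% in saline sham 1 and 13.6% in saline sham 2, and 6.54% were globin reads, against 3.74% and 3.71%. It is also the only library with its title prefix (R219). The cardiomyocyte markers were present in every library, with all 14 measured and none at 0. Their summed normalized counts were 541149 to 752572 in NAC MI, 489647 to 681401 in saline MI, 268598 to 727788 in NAC sham and 390839 to 606071 in saline sham. Their mean log2(normalized count + 1) was lowest in NAC sham 2, at 13.33, against 14.99 and 14.93 in NAC sham 1 and 3. That of the endothelial markers was highest in NAC sham 2, at 12.88. Other lists differed between surgeries. The 15 macrophage markers summed to 1272 to 12743 in NAC MI and 9736 to 14564 in saline MI, against 1531 to 22327 in NAC sham and 970 to 1591 in saline sham. NAC MI 2, with the lowest sum among the MI libraries, and NAC sham 2, with the highest among all, go against the rest of their groups. Neutrophil markers (9 of 10 measured) summed to 981 to 5914 in NAC MI and 5061 to 5927 in saline MI, against 426 to 954 in NAC sham and 115 to 744 in saline sham. Fibroblast markers (10 of 10 measured) summed to 183463 to 275130 in NAC MI and 202656 to 302440 in saline MI, against 125382 to 186660 in NAC sham and 119992 to 181725 in saline sham. Epicardial markers (8 of 8) summed to 3782 to 17600 in NAC MI and 3256 to 4179 in saline MI, against 1782 to 3660 in NAC sham and 1784 to 2477 in saline sham. Red cell markers (9 of 9), globins among them, did not overlap between the treatments, with 265998 to 521753 in NAC MI against 877401 to 1382980 in saline MI, and 189138 to 413028 in NAC sham against 547329 to 1398120 in saline sham. Endothelial markers (10 of 10) summed to 35014 to 63443 in NAC MI and 54045 to 61553 in saline MI, against 48314 to 98978 in NAC sham and 77516 to 88278 in saline sham. In none of these lists was a marker at 0 in all libraries of a group. The part of these cells, and of mitochondrial reads, in the results below was not tested. In bulk RNA, a change in the mix of cells and a change in RNA per cell cannot be told apart.

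The members varied together over the libraries. In the NAC MI libraries the mean log2(normalized count + 1) over the 77 measured members was 12.22, 12.08 and 12.40, and in the saline MI libraries 12.85, 12.66 and 12.29. The NAC sham libraries had 11.82, 11.62 and 11.77, the saline sham libraries 11.86, 11.79 and 12.94. All 6 MI libraries lay above 5 of the 6 sham libraries, and saline sham 3 lay above every other library. Across the 12 libraries, 51 of the 77 members had a correlation above 0.9 with the mean of the other members, with a median of 0.93; these points share library, depth and scaling, so the value is a description. The lowest correlations were those of Rps10 (0.18), Rpl35 (0.43), Rpl3l (0.61) and Rps6 (0.63). The highest library was saline sham 3 for 49 members, saline MI 1 for 23, NAC MI 3 for 4 and saline MI 2 for 1. In saline sham 3, 76 members were the highest of their group, by a median of 1.13 on the log2 scale over the mean of the other saline sham libraries, while the median over all genes was within 0.01 of 0 (1.57e-04).

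**Figure D1:**
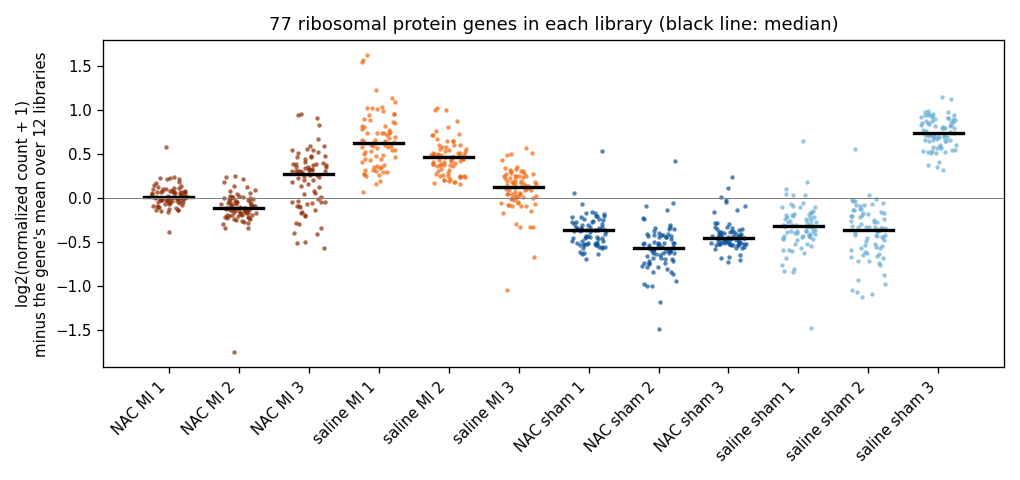
Log2(normalized count + 1) of each of 77 ribosomal protein genes minus that gene's mean over 12 libraries (vertical axis), by library (horizontal axis); each point is a gene and each black line the median. The points of saline sham 3 lie about as high as those of saline MI 1, away from the other sham libraries.

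The 40S genes held 40.9 to 44.1% of the members' normalized counts over the 12 libraries. The log2 ratio of 40S to 60S sums differed by -0.06 between saline MI and saline sham, and by 0.02 between NAC MI and NAC sham, against a pooled SD between replicates of 0.06. Between NAC MI and saline MI it differed by 0.07, somewhat above that SD, and between NAC sham and saline sham by less than 0.01 (-0.0045).

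After NAC, the members were higher in MI than in sham libraries in 76 of 77 cases, with a median log2 fold change of 0.50, while the median over all 14996 genes tested was 0.00 (-0.0018). In 62 members all 3 NAC MI libraries lay above all 3 NAC sham libraries, as they did in 9.08% of all genes. Of the 62, 23 belonged to the 40S and 39 to the 60S subunit. The exception to the direction was Rps10, with -0.38. By limma, 13 members had an unadjusted p under 0.05 in this direction (5.11% of all genes did) and none had an adjusted p under 0.05 (0.127% of all genes did). The smallest adjusted p was 0.394. In the fit without saline sham 3, NAC sham 2 and NAC MI 2, which earlier results had set apart, 2 members rose, beside 3.06% of all genes, and with limma's quality weights 4 did, beside 4.08%. Since the members vary together, their number is not a number of independent observations.

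Rpl11, which with Rpl5 and 5S rRNA can bind the p53 regulator Mdm2, had 6068, 5050 and 6668 normalized counts in NAC MI, against 3525, 3298 and 3614 in NAC sham. These groups did not overlap. Its log2 fold change was 0.76 with a standard error (SE) of 0.28 (limma, Benjamini-Hochberg adjusted p = 0.394). Rps2, a 40S protein near the mRNA entry, had 12812, 10890 and 17792 in NAC MI and 8907, 7905 and 7677 in NAC sham, again without overlap (0.73, SE 0.29, limma adjusted p = 0.427). Rps26, which contacts mRNA at the exit channel, had 8076, 8740 and 16738 in NAC MI against 6446, 6570 and 5904 in NAC sham. The value of NAC MI 3 was the highest of all 12 libraries, and the log2 fold change was 0.75 (SE 0.33, limma adjusted p = 0.485). Rpl36 had 4978, 4733 and 4623 in NAC MI and 3065, 2087 and 3432 in NAC sham, the largest change of this contrast at 0.77 (SE 0.34, limma adjusted p = 0.488).

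MI against sham after saline depended on whether saline sham 3 was included. With all libraries the members were higher after MI in 73 of 77 cases, with a median of 0.39 against -0.01 over all genes, but in none did the groups separate, whereas saline MI lay above saline sham in 10.4% of all genes. By limma 12 members had an unadjusted p under 0.05 (6.87% of all genes did, in the same direction) and none an adjusted p under 0.05 (0.86% did). Without saline sham 3 the median was 0.76, and in 70 members the 3 saline MI libraries lay above both remaining saline sham libraries, as they did in 23.2% of all genes. Then Rplp2, Rpl41 and Rpl27a passed by limma, beside 0.547% of all genes called higher, with log2 fold changes of 1.01 (SE 0.19, adjusted p = 0.0431), 1.34 (SE 0.26, adjusted p = 0.0469) and 0.97 (SE 0.19, adjusted p = 0.0481). In the fit that also left out NAC sham 2 and NAC MI 2, 46 members rose, beside 6.74% of all genes. Neither library enters this contrast, so its fold changes stayed the same, with a median of 0.76. Only the estimate of the spread, which all groups share, and its degrees of freedom differed. Saline sham 3 is the library with the highest members' mean, so leaving it out raises this contrast for the members. The adjusted p-values of fits without it do not allow for that choice of library, nor for the choice of NAC sham 2 and NAC MI 2. With limma's quality weights, which let libraries that vary more count less, 60 rose, beside 10.1% of all genes. Saline sham 3 had a weight of 0.27. The weight of saline MI 1, the MI library with the highest members' mean, was 4.70.

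The highest log2 fold changes of this contrast were those of Rpl38, Rps28 and Rps29. Rpl38, a 60S protein needed in mice for the translation of Hox mRNAs, had 7091, 4946 and 2680 normalized counts in saline MI, against 1689, 1145 and 3513 in saline sham. Saline MI 3 lay below saline sham 3, so the groups overlapped, and the log2 fold change was 1.26 (SE 0.39, limma adjusted p = 0.193). Rps28 had 5774, 3879 and 2218 in saline MI and 1452, 939 and 3063 in saline sham (1.19, SE 0.42, limma adjusted p = 0.263). Rps29, a 40S protein with a zinc finger, had 7786, 5067 and 2778 in saline MI and 1918, 1205 and 4032 in saline sham (1.19, SE 0.44, limma adjusted p = 0.304). For both, saline MI 1 was the highest of all libraries and saline MI 3 stayed below saline sham 3. Rpl41, the shortest of these proteins, had 17736, 14568 and 10474 in saline MI and 6683, 4530 and 13487 in saline sham. At the other end, Rpl3, which helps form the peptidyl transferase centre, had 11161, 11215 and 9383 in saline MI and 7657, 9890 and 16683 in saline sham (-0.04, SE 0.26, limma adjusted p = 0.976). Rps4x had 14880, 14826 and 12849 in saline MI, against 9446, 12860 and 24999 in saline sham (-0.03, SE 0.31, limma adjusted p = 0.981).

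Averaged over both treatments, MI against sham gave a median of 0.44, with 76 of 77 members higher. By limma 41 members had an unadjusted p under 0.05 in this direction, beside 10.4% of all genes. None had an adjusted p under 0.05, beside 2.74% of all genes, and the smallest was 0.0625, for Rpl36a, which sits at the tRNA exit site. DESeq2 gave 5 (Rpl38, Rpl36a, Rpl36, Rpl11 and Rpl27), with adjusted p from 0.0123 to 0.049, beside 4.53% of all genes that DESeq2 called higher, and edgeR gave none, beside 2.19%. Without saline sham 3, 60 members rose by limma (24 of 31 for the 40S and 36 of 46 for the 60S subunit), with log2 fold changes of 0.44 to 1.22, beside 5.15% of all genes called higher. With all 12 libraries, every MI library lay above every sham library in 0 of 77 members and in 218 of 14996 genes. Without saline sham 3 this held in 36 members and in 3.53% of all genes. With NAC sham 2 and NAC MI 2 left out as well, 65 rose, beside 8.32% of all genes, and all 60 were among them. Here too, leaving out saline sham 3, where the members' mean is highest, raises the contrast for the members. The adjusted p-values behind these counts do not allow for that choice, nor for the choice of NAC sham 2 and NAC MI 2. With quality weights 71 rose, beside 14.4% of all genes, and in the unweighted fit without saline MI 3, 1 did, beside 1.21%. The 17 that did not pass without saline sham 3 included Rps10 (-0.38), Rpl3l (0.40), Rpl35 (0.54), Rps6 (0.46), Rps4x (0.36) and Rpl3 (0.33). No title prefix holds both MI and sham libraries, and the effects of prefix and of surgery cannot be told apart. Markers of other cells moved in the same contrast with all libraries, in which 2.74% of all genes were called. All 9 measured neutrophil markers were higher in MI (median 2.87, 6 called), as were all 15 macrophage markers (median 1.70, 2 called). All 10 fibroblast markers (median 0.57, none called) and 7 of 8 epicardial markers (median 1.60, 4 called) were higher as well. So were all 9 red cell markers (median 0.53, none called). Of the endothelial markers 9 of 10 were lower (median -0.46, none called). Of the 7 measured smooth muscle and pericyte markers 6 were lower (median -0.48, 1 called).

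**Figure D2:**
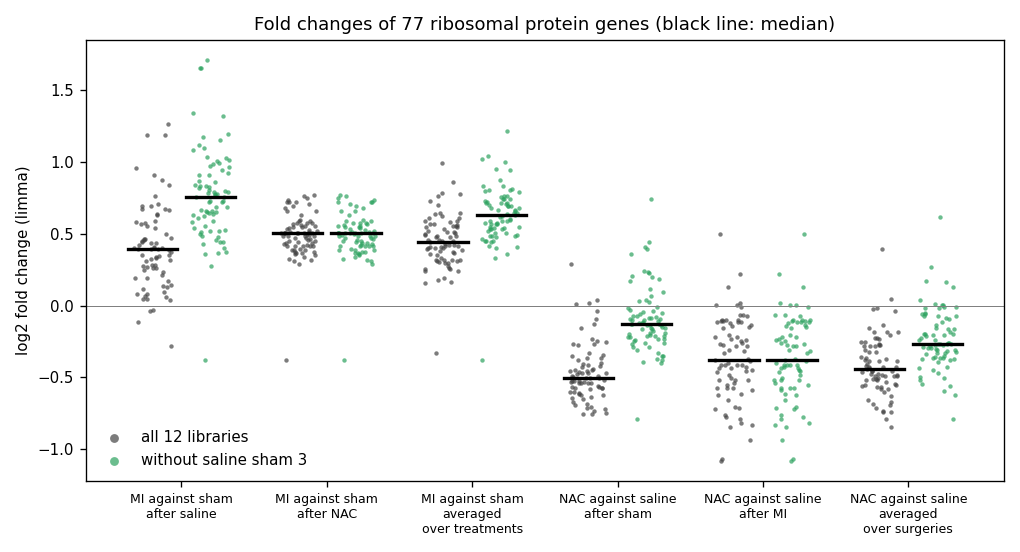
Log2 fold changes of 77 ribosomal protein genes (vertical axis) in 6 comparisons (horizontal axis), with all 12 libraries (grey) and without saline sham 3 (green); each point is a gene and each black line the median. Leaving out the library moves the median of MI against sham after saline to 0.76, against 0.39 with it, and that of NAC against saline after sham to -0.12, against -0.50.

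NAC against saline ran the other way. The comparisons share libraries with those of surgery, so the mirror image between them is no separate result. Red cell markers were lower as well: all 9 lay lower with NAC averaged over surgeries (median -0.68, none called), and their sums did not overlap between NAC and saline under either surgery. Globin reads were 1.42 to 2.78% of all reads in NAC MI against 4.24 to 7.05% in saline MI, and 1.07 to 2.68% in NAC sham against 3.71 to 6.54% in saline sham. The part of red cells in the members' values was not tested. After sham surgery 73 of 77 members were lower with NAC, with a median of -0.50 and -0.02 over all genes. In 20 members all NAC sham libraries lay below all saline sham libraries, beside 4.5% of all genes. By limma 13 had an unadjusted p under 0.05 in this direction (2.36% of all genes did), and neither a member nor any other gene passed after adjustment (0%). Without saline sham 3 the median was -0.12 and 18 members were higher with NAC. After MI 71 of 77 were lower with NAC, with a median of -0.38. The groups separated in 27 members, beside 11.5% of all genes, and 13 members had an unadjusted p under 0.05 in limma, beside 5.35% of all genes. None passed after adjustment, nor did any gene (0%). With limma's quality weights 19 members fell, beside 1.82% of all genes. In that fit saline MI 1, the MI library with the highest members' mean, had a weight of 4.70, against 1.40 and 0.82 for saline MI 2 and 3. NAC MI 1 had 2.40, against 0.45 and 0.49 for NAC MI 2 and 3.

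Averaged over surgeries the median was -0.44, with 75 of 77 members lower with NAC. By limma 39 had an unadjusted p under 0.05, beside 7.9% of all genes, and none had an adjusted p under 0.05 (0% of all genes), the smallest being 0.191. DESeq2 gave 9 members lower (Rplp2, Rpl8, Rps19, Rps15, Rps13, Rplp1, Rpl28, Rpl36 and Rpl13), with adjusted p from 0.0138 to 0.0448, beside 1.17% of all genes that DESeq2 called lower, and edgeR none, beside 0%. With limma's quality weights 26 fell, beside 6.5% of all genes, in the same fit in which saline MI 1 and NAC MI 1 counted most in their groups. Within the title prefixes that hold both treatments, NAC stayed below saline in the members' mean: 11.62 in NAC sham 2 against 11.86 and 11.79 in saline sham 1 and 2 (R207), 12.22 and 12.08 in NAC MI 1 and 2 against 12.29 in saline MI 3 (R235), and 12.40 in NAC MI 3 against 12.85 and 12.66 in saline MI 1 and 2 (R230). With the prefix as a block the averaged median was -0.25, and no member passed. The sham part of that fit rested on NAC sham 2 alone against saline sham 1 and 2. NAC sham 2 is among the libraries that earlier results had set apart. The interaction of NAC and MI had a median of 0.13 with all libraries and -0.26 without saline sham 3, and no gene passed it in either fit (0%; 305 genes, none of them a member, had an unadjusted p under 0.05 with all libraries, and neither edgeR nor DESeq2 called a member).

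Among the members lowest with NAC was Rpl28, a 60S protein. It had 6046, 4454 and 3669 normalized counts in NAC MI against 10588, 8549 and 7670 in saline MI, and 3204, 2584 and 4044 in NAC sham against 5866, 2708 and 10063 in saline sham. The groups separated after MI and overlapped after sham surgery, and the averaged log2 fold change was -0.84 (SE 0.27, limma adjusted p = 0.218). Rps15, a 40S protein at the decoding region, had 6909, 5751 and 4570 in NAC MI against 12065, 10016 and 8677 in saline MI. In sham libraries it had 3916, 3169 and 4307 with NAC and 6305, 3654 and 10705 with saline (averaged -0.79, SE 0.23, limma adjusted p = 0.198). Rps19, whose human gene is mutated in Diamond-Blackfan anaemia, had 4764, 3888 and 3423 in NAC MI against 8244, 6150 and 5614 in saline MI. It had 3305, 2819 and 3120 in NAC sham against 4218, 3750 and 8685 in saline sham, so that NAC lay below saline without overlap under both surgeries (averaged -0.73, SE 0.20, limma adjusted p = 0.191). The acidic stalk protein Rplp2 had 5170, 4801 and 5022 in NAC MI against 10372, 7985 and 7525 in saline MI, and 3679, 3459 and 3408 in NAC sham against 4958, 3610 and 8624 in saline sham (averaged -0.69, SE 0.19, limma adjusted p = 0.191). By contrast Rps6, the target of the S6 kinases, had 7498, 7196 and 15083 in NAC MI against 9320, 8944 and 6162 in saline MI, and 6256, 7446 and 5491 in NAC sham against 4846, 7912 and 11246 in saline sham. Its groups overlapped throughout (averaged -0.01, SE 0.24, limma adjusted p = 0.983).

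Rplp0, the base of the stalk that recruits translation factors, had 22095, 19661 and 28667 normalized counts in NAC MI, with 31275, 30724 and 23408 in saline MI. Its sham libraries had 17477, 16326 and 16502 with NAC, and 17027, 19518 and 37664 with saline. NAC MI lay above NAC sham without overlap, whereas saline sham 3 was above all saline MI libraries. Rpl5, the partner of Rpl11 in the 5S particle, had 7706, 6891 and 10077 in NAC MI against 6900, 5697 and 6351 in NAC sham, and these overlapped by 1 library (0.37, SE 0.27, limma adjusted p = 0.636). Rps27a, a fusion of ubiquitin and a 40S protein, had 5887, 5216 and 8389 in NAC MI against 4437, 4046 and 4166 in NAC sham (0.59, SE 0.27, limma adjusted p = 0.494). Rpl4, which lines the exit tunnel, had 15387, 15465 and 19304 in NAC MI and 12325, 12132 and 11240 in NAC sham (0.48, SE 0.25, limma adjusted p = 0.524). Both separated the groups. Rpl8, a 60S protein, had 10405, 9433 and 9722 in NAC MI, 15754, 14512 and 12733 in saline MI, 7133, 6528 and 7137 in NAC sham and 10476, 7921 and 16136 in saline sham. All 3 libraries with NAC lay below those with saline under either surgery, and the averaged log2 fold change for NAC was -0.60 (SE 0.17, limma adjusted p = 0.198). Rpl10, whose loading is a late step of 60S maturation, had 10995, 11464 and 14695 in NAC MI against 14656, 13597 and 11775 in saline MI, which overlapped (-0.11, SE 0.30, limma adjusted p = 0.91).

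**Figure D3:**
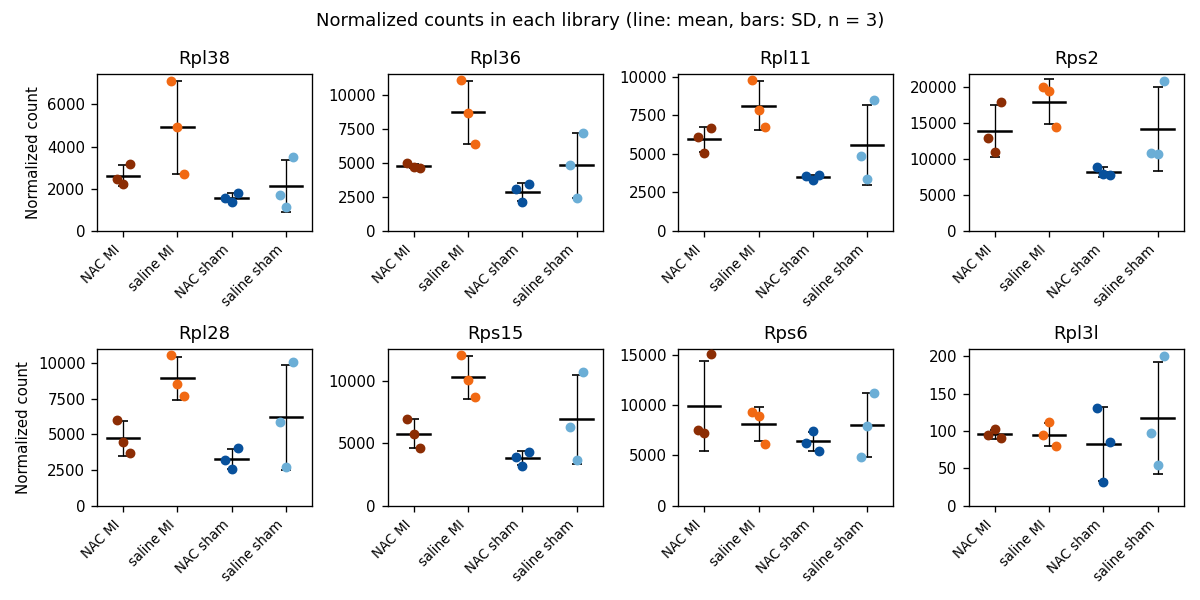
Normalized counts (vertical axes) of 8 ribosomal protein genes in NAC MI, saline MI, NAC sham and saline sham (horizontal axes); points are libraries, lines are means and bars are SD (n = 3). The highest saline sham point is saline sham 3 in all 8 panels, and Rpl3l is the gene with the lowest counts, 32 to 201.

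Set against the members' own mean in each library, the mix of the members also differed between libraries. NAC MI 3 had more Rps6 (0.76 on the log2 scale, relative to the members' mean and to the gene's own average) and Rps26 (0.74) and less Rps28 (-0.78), Rps29 (-0.72), Rpl28 (-0.70) and Rps15 (-0.62). Saline MI 1 had more Rps29 (0.97), Rps28 (0.91) and Rpl38 (0.88) and less Rpl3 (-0.49). The relative levels were also set against properties of the transcripts. In NAC MI 3 the correlation over the 77 members between the relative level and transcript GC content was -0.45, and in saline MI 1 that with log2 transcript length was -0.55, as it was -0.46 in saline MI 2. In the other libraries the correlation with length lay between -0.10 and 0.28, and that with GC between -0.26 and 0.37 over all libraries but NAC MI 3. Over the 69 members with under 10% of the transcript inside exons of another gene, the correlation with GC was -0.52 in NAC MI 3, 0.48 in saline sham 1, 0.45 in NAC MI 1, 0.43 in saline MI 3 and -0.42 in NAC sham 2. The points share their library, and the values are a description. No member passed in any comparison when the values were set relative to the members' mean, the smallest adjusted p being 0.122, for Rpl38 in MI against sham averaged over treatments (0.54, SE 0.20, limma).

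**Figure D4:**
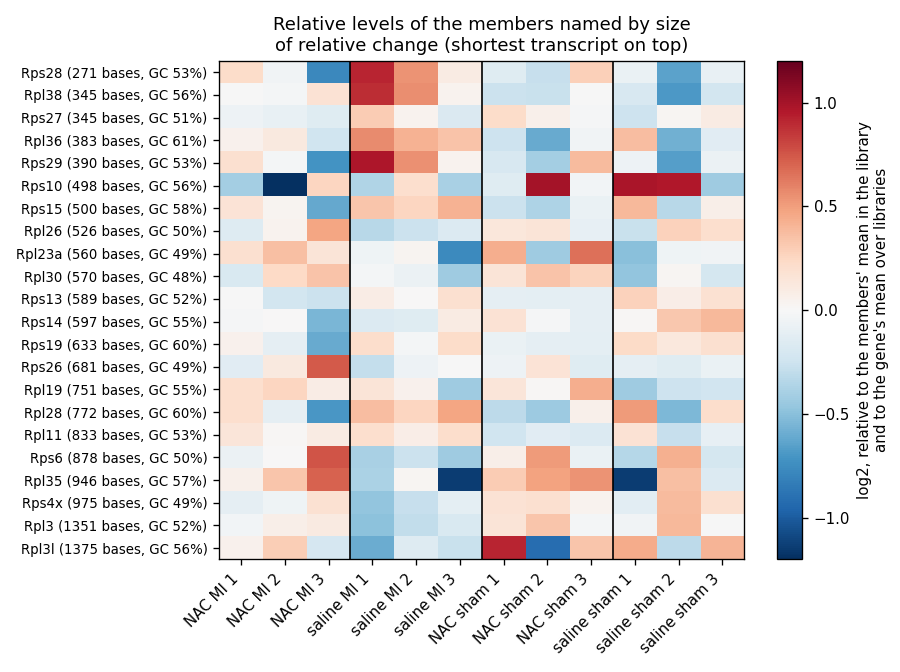
Log2 level of 22 ribosomal protein genes relative to the members' mean in the same library and to the gene's own mean over libraries (colour), by library (horizontal axis), with the shortest transcript on top. In saline MI 1 the short Rps28 (0.91), Rpl38 (0.88) and Rps29 (0.97) are high and the long Rpl3 (-0.49) is low, and in NAC MI 3 Rps28 (-0.78) and Rps29 (-0.72) are low.

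Levels are compared between genes as mean normalized count per kilobase of transcript over the 12 libraries. The highest were Rplp1, an acidic stalk protein, with 23650 ± 10087 (SD, n = 12), Rps12 with 22266 ± 7834, Rpl41 with 20846 ± 9611, Rplp0, the base of the stalk, with 17203 ± 5211, and Rps14 with 16324 ± 6489. These overlap widely in their spread. Leaving out the 4 paralogs Rpl3l, Rpl10l, Rpl39l and Rps27l, 76 genes remained. For 71 of them at most 50% of the transcript lay inside exons of another annotated gene, and their median was 9222, with 69 of the 71 within 4-fold of it. Their lowest was Rps20 with 1806, from a mean normalized count of 6695 over the transcript of 3706 bases used here.

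The other 5 lay below all of these. Rpl23a had 540 normalized counts per kb, with 55.4% of its transcript inside exons of Tlcd1 on the opposite strand. Rpl35 had 405 (68.3%, Wdr38, opposite strand), Rpl13a had 93.6 (59.3%, Gm45713, same strand), Rps10 had 89.8 (91.6%, RPS10-NUDT3, same strand), and Rpl24 had 7.5 (71.5%, Gm28037, same strand). Gm45713, RPS10-NUDT3 and Gm28037 were listed at 0 in all libraries. Rpl5 (46.6%, Fam69a, opposite strand) stood at 3882 and Rpl30 (34.7%, opposite strand) at 2306. Which reads the authors' counting kept where genes overlap is not given in the sources used here, and its part in these levels was not tested. Rpl24 had 0 to 12 reads a library: 2, 5 and 12 in NAC MI, 4, 6 and 2 in saline MI, 0, 12 and 1 in NAC sham and 9, 2 and 7 in saline sham. Rps10, Rpl35, Rpl13a and Rpl23a were among the 6 members with the lowest correlation with the others' mean.

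**Figure D5:**
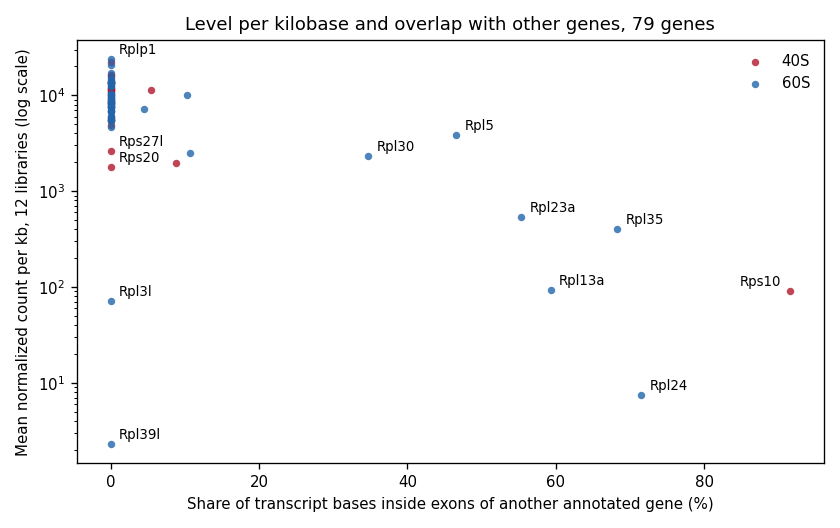
Mean normalized count per kilobase over 12 libraries (vertical axis, log scale) against the share of the transcript inside exons of another annotated gene (horizontal axis) for 79 ribosomal protein genes; Rpl10l, at 0, is not drawn. The 5 genes with a share above 50% lie at 540 or below, and Rps20, the lowest of the rest apart from paralogs, lies at 1806.

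Copies elsewhere in the genome also touch these counts. Of the transcripts' 75-base windows a median of 50.1% was found, letter for letter, in another annotated transcript, mostly of processed pseudogenes. The share ran from 0%, as in Rps3, Rpl3l and Rpl39l, to 98.5% in Rps27, which has a near-identical copy, Rps27rt. How reads with several matches were counted is not given, so levels of members with high shares are uncertain. The 299 rows of pseudogenes named after a member, with a symbol ending in -ps, held counts equal to 1.08 to 1.56% of the members' reads. Copies with other names, such as Gm10163 and Gm10240 for Rpl21, are not in this share. Rps3, with no shared window, had a log2 fold change of 0.53 (SE 0.27, limma adjusted p = 0.523) for MI against sham after NAC.

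Among the paralogs, Rpl3l had 94.8, 102 and 90.5 normalized counts in NAC MI, with 94.2, 111 and 79.9 in saline MI, against 131, 31.5 and 84.6 in NAC sham and 97.1, 54.6 and 201 in saline sham. The MI libraries were close together, and the sham libraries spread on both sides of them. Per kilobase it stood at 71.1, against 7543 for Rpl3. The log2 ratio of Rpl3l to Rpl3 was -6.78 ± 0.19 in MI and -6.76 ± 0.79 in sham libraries (SD, n = 6 each; difference -0.02, two-sided exact permutation p = 0.96, adjusted p = 1). Rps27l, a p53-inducible paralog of Rps27, had 1179, 1493 and 1758 in NAC MI, with 1902, 1645 and 1265 in saline MI, against 1125, 804 and 1009 in NAC sham and 942, 875 and 1851 in saline sham. Its ratio to Rps27 was higher with NAC by 0.24 (log2 means -1.91 ± 0.25 with NAC and -2.15 ± 0.21 with saline, SD, n = 6 each, exact permutation p = 0.105, adjusted p = 1). None of 24 tests over 4 pairs and 6 comparisons had an unadjusted p under 0.1, and 3 libraries against 3 cannot give one under that. Rpl10l had no read in any library, and Rpl39l had 0 to 5 reads, against 1990 to 6790 normalized counts for Rpl39.

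Relatives that the symbol rule leaves out were read as a list. Rps3a1, a 40S protein, averaged 12038 ± 1898 normalized counts in NAC MI and 13688 ± 1392 in saline MI, against 8261 ± 544 in NAC sham and 13010 ± 6132 in saline sham (SD, n = 3 each). Fau, whose product is cut into a ubiquitin-like protein and the 40S protein eS30, averaged 5158 ± 1051 in NAC MI and 6656 ± 1046 in saline MI, against 3521 ± 242 in NAC sham and 5725 ± 2638 in saline sham. Of the 9 measured genes of this list, all 9 were higher in MI against sham averaged over treatments, with a median of 0.29, and none passed. Within each treatment the direction was less even: 7 were higher and 2 lower in NAC MI than in NAC sham (median 0.32), and 8 were higher and 1 lower in saline MI than in saline sham (median 0.17). With NAC averaged over surgeries 8 were lower and 1 higher (median -0.38), and none passed.

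The genes that serve the ribosome were read from lists. Of 24 translation factors and other genes with TOP mRNAs (Eef1a1, Eef2, Tpt1 and others), 21 were higher in NAC MI than in NAC sham, with a median of 0.36, and 17 were higher in saline MI than in saline sham, with a median of 0.10. With NAC, 21 of the 24 were lower averaged over surgeries, with a median of -0.29. After sham 22 were lower (median -0.44) and after MI 18 were (median -0.15). None of the 24 passed in any comparison. Eef1d, an elongation factor subunit, had the smallest p for MI against sham averaged over treatments (0.49, SE 0.14, limma adjusted p = 0.0855). Of 40 genes of ribosome assembly, 36 were higher in MI, with an averaged median of 0.21, and 1 passed, beside 2.74% of all genes: Nhp2, a protein of the snoRNPs that guide rRNA modification, with 0.65 (SE 0.14, limma adjusted p = 0.0279). With NAC 18 of the 40 were higher and 22 lower, with a median of -0.03. Of 27 initiation and elongation factors outside the TOP list, 25 were higher in NAC MI than in NAC sham, with a median of 0.24, while 13 were higher and 14 lower in saline MI than in saline sham, with a median of -0.03. Averaged, 22 were higher, with a median of 0.09, and none passed. Of 25 genes that control these mRNAs, 7 were higher and 18 lower in MI, with a median of -0.14. Mycn, a transcription factor that drives ribosome production, fell by 0.75 (SE 0.18, limma adjusted p = 0.0432). Mtor averaged 1155 ± 28 in NAC MI and 935 ± 162 in saline MI, against 1422 ± 93 in NAC sham and 1072 ± 309 in saline sham (SD, n = 3 each). Larp1 averaged 1864 ± 283 in NAC MI and 1887 ± 36 in saline MI, against 2054 ± 53 in NAC sham and 1944 ± 559 in saline sham.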

How the data were processed

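RNA of 12 libraries was sequenced after poly-A enrichment, per the labels' protocols. The authors deposited 1 table of normalized counts (signal): gene reads divided by a size factor per library. Multiplied back, 100% of values came within 0.01 of a whole read. STAR 2.7.10a, DESeq2 1.44.0 and the build mm10 are listed in the submitters' processing notes; the counter, annotation and strand setting are not given in the sources used here. GENCODE M21 (GRCm38) identifiers matched 52079 of 52336 genes. Genes with a mean normalized count of at least 10 (14996) were tested as log2(value + 1) with limma 3.58.1 in R 4.3.3: 4 group means over 12 libraries, 8 residual degrees of freedom, trended prior, two-sided, Benjamini-Hochberg over all genes, adjusted p under 0.05. edgeR 4.0.16 and DESeq2 1.42.0 on recovered reads were alternatives. The limma and edgeR fits, but not DESeq2, were tested on simulated counts with genes drawn independently, whereas the members vary together. Fold changes on this scale understate changes of low genes. Transcript lengths, GC and shared windows used the shortest principal coding transcript. Replicates were numbered by accession and pair nothing. Genes were named by rank of fold change, level per kb, change relative to the members, and a list of well-known members. The members and lists were chosen with earlier results of these data known.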

Additional observations from a re-analysis of the deposited data

How the results depend on the processing

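Libraries could not be paired by replicate number, because these numbers come from accession order. The title prefix could serve as a block for NAC against saline only. The medians were then -0.23 after sham, -0.25 after MI and -0.25 averaged, and no member passed after MI or averaged. The sham value set NAC sham 2 alone against saline sham 1 and 2. Without 1 library at a time, members called were 0 to 3 for MI against sham after saline, 0 to 60 averaged over treatments (60 without saline sham 3; 1 without saline MI 3, beside 1.21% of all genes), and 0 in the 5 other comparisons. The medians were 0.18 to 0.76 for MI against sham after saline, -0.68 to -0.12 for NAC against saline after sham, and -0.26 to 0.35 for the interaction, whose sign turned without saline sham 3, with quality weights (-0.25) and without the 3 libraries set apart (-0.23). With limma's quality weights members called were 60 for MI against sham after saline, 4 after NAC and 71 averaged, beside 10.1%, 4.08% and 14.4% of all genes called higher in the same fit. For NAC against saline 19 were lower after MI and 26 averaged, beside 1.82% and 6.5% of all genes. Without the 3 libraries set apart they were 46, 2 and 65 for MI, beside 6.74%, 3.06% and 8.32% of all genes, and the medians were 0.76 for MI against sham after saline and -0.082 for NAC against saline after sham. DESeq2 called 5 for MI averaged and 9 for NAC averaged, beside 4.53% and 1.17% of all genes in the same direction. Centred on the members, the medians are near 0 by construction: -0.01 after saline (-0.0104), 0.01 after NAC (0.0072) and -0.0083 averaged for MI, and -0.0418 after sham, -0.0105 after MI and -0.0245 averaged for NAC. Scaling to all reads of a library in place of the size factors moved the median of all genes to -0.23 for MI against sham after saline and the members' to 0.17. Otherwise the cause was not tested. The other 311 alternatives for counts and medians, and all 420 for paralog and subunit ratios, moved by less than the spread between replicates, or gave the same count or the same side of the threshold.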
